A study of Bos taurus with 12 samples.

Results

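Transcript levels of 9 genes for ligands and receptors of the epidermal growth factor (EGF) and fibroblast growth factor (FGF) families were examined in precursor adipocytes of cattle (Bos taurus), the cells from which fat cells form. The genes were taken by name, with earlier results of these data known, from the 29240 genes of the count table. They are the ligands EREG, HBEGF and NRG1 and the receptors EGFR and ERBB2 of the EGF family, with the ligands FGF2 and FGF7 and the receptors FGFR1 and FGFR2 of the FGF family. All 9 passed the filter on low counts, as did 16300 genes in all. The study holds 12 RNA sequencing libraries in 4 groups of 3, each from cells collected 48 h after transfection. In the interference assay, cells of the si group were set against the si_NC group, and the labels name neither the interfering RNA nor its target. In the overexpression assay, cells of the OE group received the plasmid pcDNA3.1 with HGFAC, and cells of the OE_NC group received the pcDNA3.1-NC control. HGFAC encodes a secreted protease that activates hepatocyte growth factor. The labels give no animal, age or sex, and nothing in them says that the 3 libraries of a group came from separate cultures. The p-values therefore measure the spread between these libraries, which may be technical.

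Ligands of both families bind receptor tyrosine kinases at the cell surface, which pair, phosphorylate each other and pass the signal to the RAS-ERK cascade. EGF family ligands are made as membrane proteins and cut free by ADAM proteases, and ERBB2, which has no known ligand, works as a partner of the other receptors. FGFs bind their receptors together with heparan sulfate chains. FGF7 is known as a product of connective tissue cells that acts on a splice form of FGFR2 typical of epithelia, and FGF2 is known to support the growth of cultured precursor adipocytes in human and mouse. Counts per gene do not separate splice forms.

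Counts assigned to genes summed to between 28.9 M and 42.7 M per library (M, units of 1e6), and replicates of a group correlated at 0.9839 to 0.9927 across genes (Pearson, log2 CPM). HGFAC, in counts per M after scaling between libraries (CPM), averaged 161 ± 26.35 CPM in OE and 0.393 ± 0.127 CPM in OE_NC (SD, n = 3 each). It averaged 0.658 ± 0.165 CPM in si and 0.830 ± 0.099 CPM in si_NC (SD, n = 3 each), and the groups overlapped. The stromal markers COL1A2, VIM and PDGFRA averaged 7200, 5940 and 274.7 CPM over the 12 libraries, whereas CD34 and DLK1, which mark precursor adipocytes in other preparations, averaged 0.0287 and 0.0689 CPM. Of the mature fat cell markers, ADIPOQ averaged 0.0604 CPM and PPARG 16.7 CPM. DES, a muscle and myofibroblast filament gene, averaged 569 CPM and the muscle actin gene ACTA1 11.9 CPM. The muscle genes MYOD1, MYOG, MYF5 and CKM were each under 0.05 CPM. Across genes, si replicate 3 deviated from its group mean in the same direction as si_NC replicate 2 (r = 0.332), and results without these 2 libraries are given where they differ.

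Per length of transcript, FGF7 and FGFR1 stood far above the other 7 genes in every group. In reads per kilobase per M reads (RPKM), the authors' deposited per-length unit, FGF7 averaged 129 ± 30.1 in si, 125 ± 28.4 in si_NC, 136.3 ± 0.629 in OE and 115 ± 7.38 in OE_NC (SD, n = 3 each). FGFR1 averaged 28.1 ± 0.341 RPKM in si, 22.3 ± 0.631 RPKM in si_NC, 21.7 ± 1.24 RPKM in OE and 24.6 ± 0.338 RPKM in OE_NC. The order of these first 2 genes was the same in all 4 groups, with no overlap between their libraries. FGF7 supplied between 93.7% and 97.5% of the summed RPKM of the 5 ligand genes in every library.

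ERBB2 came next in 3 groups, at 4.10 RPKM in si, 3.56 RPKM in OE and 4.004 RPKM in OE_NC. In si_NC it was at 3.82 RPKM, and EREG, at 4.87 ± 0.794 RPKM, had the higher mean, with overlap between the libraries of the 2 genes. EREG, EGFR and FGFR2 followed ERBB2 in si and OE_NC at between 2.04 and 2.65 RPKM, and neighbouring genes among them overlapped. FGF2 came after these genes in every group, at 0.840 RPKM in si, 1.36 RPKM in si_NC, 1.30 RPKM in OE and 1.125 RPKM in OE_NC. HBEGF and NRG1 were the lowest, with NRG1 last at between 0.222 and 0.410 RPKM. The libraries of HBEGF and FGF2 overlapped in si, and those of HBEGF and NRG1 overlapped in OE.

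Among receptors, the RPKM of FGFR1 was 9.61 to 14.5 times that of FGFR2 in each of the 12 libraries. The ratio was 13.8 ± 1.01 in si and 9.89 ± 0.246 in si_NC, and 10.4 ± 1.11 in OE and 11.2 ± 0.636 in OE_NC (SD, n = 3 each). The ratio lay above every si_NC library in all 3 si libraries. ERBB2 had between 1.24 and 2.42 times the RPKM of EGFR, with the mean ratio 1.42 ± 0.160 in OE and 1.91 ± 0.181 in OE_NC.

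Other members of both families were low. All 7 other EGF family ligand genes in the table averaged under 1 RPKM over the 12 libraries, with NRG2 at 0.157 and TGFA at 0.151 RPKM, and 5 of the 7 did not pass the count filter. The receptors that NRG1 binds, ERBB3 and ERBB4, averaged 0.059 and 0.00171 RPKM, ERBB4 with 8 counts over all libraries. Of 15 other FGF ligand genes, 14 averaged under 1 RPKM, and FGF10 averaged 1.37 RPKM, beside 1.16 RPKM for FGF2. FGFR3 averaged 0.380 RPKM, FGFR4 0.0254 RPKM and FGFRL1, which lacks a kinase, 0.646 RPKM. The plot of per-length levels shows these genes beside the 9.

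**Figure D1:**
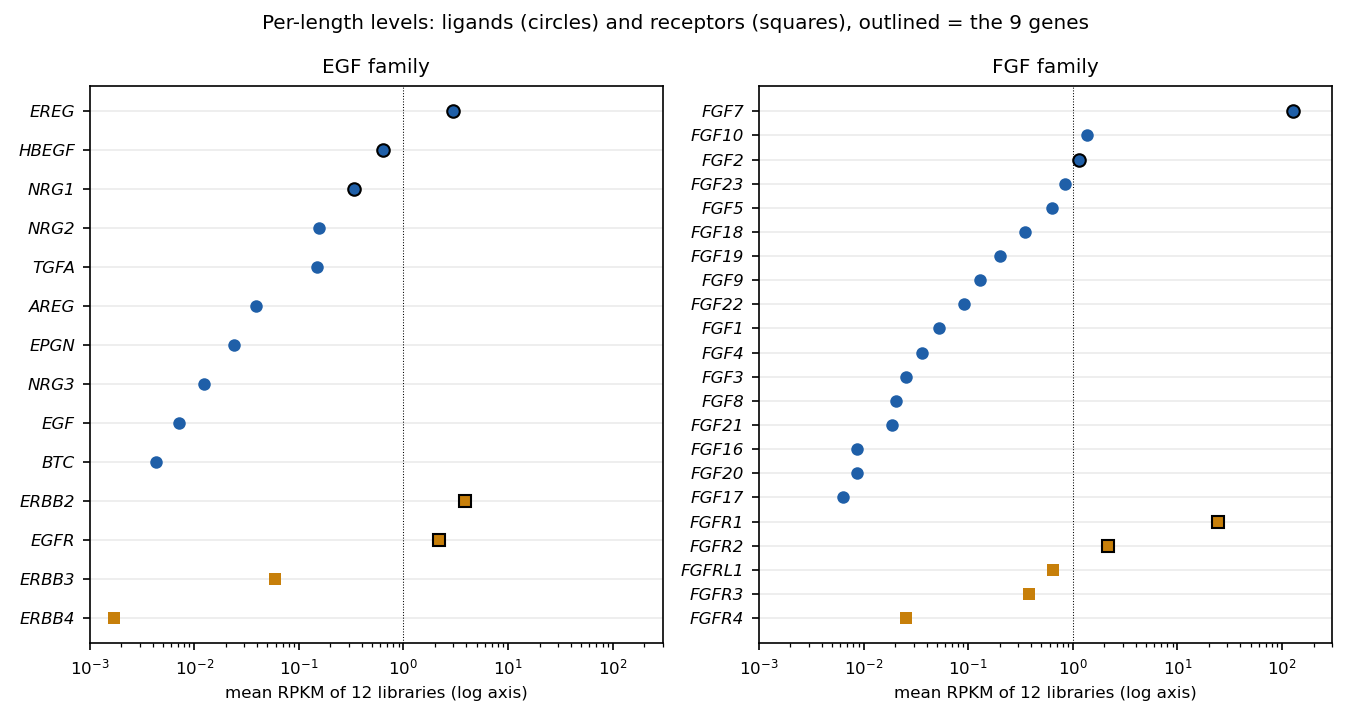
Mean RPKM over 12 libraries (log axis) of each ligand (circles) and receptor (squares) of the EGF family (left) and FGF family (right), with the 9 genes outlined in black and a dotted line at 1 RPKM. FGF7 lies farthest to the right, followed by FGFR1, and ERBB4 is the lowest receptor.

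EREG encodes epiregulin, a ligand of EGFR and ERBB4, on chromosome 6 from 89306906 to 89327084, plus strand. It was lower in si than in si_NC, and the plasmid control OE_NC was also lower than si_NC. EREG was at 7.26, 10.1 and 8.97 CPM in the si libraries, against 20.15, 16.8 and 14.3 CPM in the si_NC libraries. All si libraries lay below all si_NC libraries. The fitted level in si was 0.515 of that in si_NC, a log2 change of -0.96 ± 0.15 (SE; 95% interval -1.28 to -0.63; adjusted p = 0.00786, edgeR's quasi-likelihood test with Benjamini-Hochberg adjustment over all genes tested). Those CPM values rest on raw counts of 267 to 444 in si and 428 to 616 in si_NC.

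In the overexpression assay EREG was at 6.79, 7.26 and 7.12 CPM in OE, against 8.54, 7.33 and 6.03 CPM in OE_NC. The 2 groups overlapped, and the log2 change was -0.05 with a 95% interval of -0.39 to 0.29 (adjusted p = 0.885). The si call for EREG held without each of the 6 libraries in turn (log2 change -1.08 to -0.82). Without si replicate 1 it sat near the threshold (adjusted p = 0.0476, edgeR). The call was lost in a fit of only the si and si_NC libraries, where the log2 change was -0.95 and the adjusted p 0.0823. EREG shares 59 of its 3374 exon bases with LOC104968898 on the other strand, which averaged 2.41 CPM.

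Epithelial markers were read beside EREG, which epithelial cells are known to make. The summed level of 8 epithelial marker genes ranged over 3.61 to 4.57 CPM in si and 2.14 to 2.64 CPM in si_NC, and over 3.74 to 4.87 CPM in OE and 3.66 to 4.45 CPM in OE_NC. EPCAM and KRT14 averaged 0.0333 and 0.0160 CPM, and 4 of the 8 genes passed the filter. The summed level was higher in si, where EREG was lower. Of the 4 tested markers 0 passed in si (adjusted p of 0.0994 to 0.402, edgeR). The si and si_NC libraries overlapped for CDH1 and KRT19 and did not for KRT8 and GRHL2. The part of other cell types in the EREG result was not tested. In bulk RNA, fewer cells of a type and less RNA per cell cannot be told apart.

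HBEGF encodes heparin-binding EGF-like growth factor, a ligand of EGFR and ERBB4, on chromosome 7 from 51533600 to 51544783, minus strand. It was at 0.925, 1.42 and 0.770 CPM in si, against 1.18, 1.055 and 1.14 CPM in si_NC. In OE it was at 0.776, 1.025 and 1.05 CPM, against 0.927, 1.11 and 0.941 CPM in OE_NC. Both pairs of groups overlapped, and si replicate 2 held the highest value of the 12. The log2 change was -0.10 in si (95% interval -0.66 to 0.46; adjusted p = 0.873) and -0.07 in OE (95% interval -0.63 to 0.50; adjusted p = 0.904). Raw counts were 28 to 62 per library, and changes inside those intervals were not excluded.

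NRG1 encodes neuregulin, a ligand of ERBB3 and ERBB4, on chromosome 27 from 28421076 to 28655095, plus strand. It was at 2.34, 2.74 and 2.15 CPM in si, against 4.38, 2.11 and 4.11 CPM in si_NC. The single low si_NC library, replicate 2, lay under all 3 si libraries, so the groups overlapped. The log2 change was -0.55 ± 0.235 (SE; 95% interval -1.05 to -0.05), with an adjusted p of 0.217. Without si_NC replicate 2 the log2 change was -0.82 and passed the test (adjusted p = 0.0217), and without si replicate 3 and si_NC replicate 2 together it was -0.745 (adjusted p = 0.0356). The second of these fits was chosen after seeing the data.

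NRG1 was at 5.52, 3.65 and 4.47 CPM in OE, against 4.39, 4.12 and 4.73 CPM in OE_NC. OE libraries lay on both sides of the OE_NC libraries, and the log2 change of 0.04 had a 95% interval of -0.43 to 0.51 (adjusted p = 0.931).

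EGFR, the receptor of EREG and HBEGF, lies on chromosome 22 from 899974 to 1121540, minus strand. EGFR was at 21.7, 21.8 and 22.45 CPM in si, against 21.2, 23.9 and 17.5 CPM in si_NC. The si values fell inside the si_NC range, with a log2 change of 0.08 (95% interval -0.19 to 0.34; adjusted p = 0.79). In OE it was at 23.4, 28.8 and 26.1 CPM, against 18.3, 20.6 and 24.2 CPM in OE_NC. OE replicate 1 lay below OE_NC replicate 3, so the groups overlapped. The log2 change in OE was 0.31 ± 0.12 (SE; 95% interval 0.05 to 0.57), which did not pass (adjusted p = 0.143, edgeR).

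ERBB2, the receptor without a known ligand, lies on chromosome 19 from 40072599 to 40096977, plus strand. It was at 16.8, 18.3 and 19.7 CPM in si, against 16.2, 18.9 and 18.7 CPM in si_NC. In OE it was at 15.2, 15.8 and 17.96 CPM, against 15.4, 19.1 and 18.6 CPM in OE_NC. Both pairs overlapped, and the highest of the 12 values was that of si replicate 3 and the lowest that of OE replicate 1. The log2 change was 0.03 in si (95% interval -0.21 to 0.26; adjusted p = 0.925) and -0.12 in OE (95% interval -0.35 to 0.12; adjusted p = 0.557).

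FGF2 encodes basic fibroblast growth factor, a ligand of FGFR1 and other FGF receptors, on chromosome 17 from 34801330 to 34860849, minus strand. It was lower in si than in si_NC and did not pass the test in OE. FGF2 was at 6.25, 4.98 and 5.09 CPM in si, against 8.54, 9.77 and 9.62 CPM in si_NC. Every si library lay below every si_NC library. The fitted level in si was 0.584 of that in si_NC, a log2 change of -0.78 ± 0.13 (SE; 95% interval -1.05 to -0.50; adjusted p = 0.00859, edgeR). The call held without each of the 6 libraries in turn (-0.89 to -0.72). Without si replicate 2 it sat at the threshold (adjusted p = 0.0497, edgeR). The call was lost in a fit of only these 2 groups (log2 change -0.77, adjusted p = 0.0847).

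In the overexpression assay FGF2 was at 8.43, 9.60 and 8.07 CPM in OE, against 6.71, 8.09 and 6.89 CPM in OE_NC. OE replicate 3 and OE_NC replicate 2 overlapped. The log2 change was 0.27 ± 0.125 (SE; 95% interval 0.00 to 0.53), with an adjusted p of 0.217 (edgeR).

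FGF2 shares 1122 of its 6594 exon bases (17.0%) with NUDT6, a hydrolase gene on the opposite strand. The libraries were stranded, but the strand setting of the counting is not given in the sources used here, so reads of the 2 genes in that stretch cannot be told apart. NUDT6 averaged 6.77 ± 1.30 CPM in si and 7.04 ± 0.803 CPM in si_NC (SD, n = 3 each), a log2 change of -0.06 that did not pass the test (adjusted p = 0.883). The ratio of FGF2 to NUDT6 counts was 0.637 to 0.959 in si and 1.15 to 1.60 in si_NC, with no overlap. It was 0.782 to 1.031 in OE and 0.693 to 1.016 in OE_NC. Both of these groups overlapped si, and si_NC lay above every other group. The share of FGF2 counts that fell in the common stretch was not analysed here.

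FGF7, keratinocyte growth factor, lies on chromosome 10 from 60792440 to 60854453, minus strand. FGF7 was at 240.0, 246.2 and 360.1 CPM in si, against 278.3, 352.7 and 231.1 CPM in si_NC. The highest values were those of si replicate 3 and si_NC replicate 2, the same libraries that deviated together across genes. The groups overlapped, with a log2 change of -0.03 (95% interval -0.34 to 0.29; adjusted p = 0.945).

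In OE, FGF7 was at 308.0, 308.5 and 304.9 CPM, against 237.9, 243.8 and 266.7 CPM in OE_NC. All OE libraries lay above all OE_NC libraries. The log2 change was 0.30 ± 0.15 (SE; 95% interval -0.02 to 0.62) and did not pass the test (adjusted p = 0.246). It passed in a fit of only OE and OE_NC (adjusted p = 0.0161) and without the filter on low counts (adjusted p = 0.0145). The summed stromal markers ranged over 18715 to 20011 CPM in OE and 14533 to 19330 CPM in OE_NC, and the 6 summed muscle markers, nearly all DES, over 713 to 743 CPM in OE and 517 to 589 CPM in OE_NC. The 2 muscle markers that passed the filter moved in opposite directions: DES rose (716.2 CPM in OE and 535.7 CPM in OE_NC, log2 change 0.42, adjusted p = 0.0399) and ACTA1 fell (9.69 CPM in OE and 15.5 CPM in OE_NC, log2 change -0.68, adjusted p = 0.0208, edgeR). Their part in the FGF7 values was not tested.

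FGFR1, a receptor of FGF2, lies on chromosome 27 from 33548426 to 33598542, minus strand. It was at 106.1, 106.5 and 105.3 CPM in si, against 87.5, 89.3 and 89.6 CPM in si_NC. The 3 si values lay close together and above every si_NC value. The fitted level in si was 1.19 times that in si_NC, a log2 change of 0.255 ± 0.064 (SE; 95% interval 0.12 to 0.39; adjusted p = 0.0494, edgeR). This call sat at the threshold, and it was lost without si replicate 1, 2 or 3 or si_NC replicate 1 or 3 (log2 change 0.24 to 0.26, adjusted p of 0.0526 to 0.177). It was also lost with the replicate number as a block (adjusted p = 0.0622) and with DESeq2 size factors (adjusted p = 0.0564). The same held without the filter on low counts (adjusted p = 0.169) and with only the groups compared (adjusted p = 0.161, all edgeR). The summed level of 12 stromal markers ranged over 18733 to 23727 CPM in si and 13903 to 18933 CPM in si_NC. THY1 was the single one of them that passed (14.6 CPM in si and 9.22 CPM in si_NC, adjusted p = 0.0263), and the part of these markers in the FGFR1 result was not tested.

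In the overexpression assay FGFR1 was at 79.3, 89.8 and 83.6 CPM in OE, against 91.4, 92.4 and 92.1 CPM in OE_NC. Each OE library lay below each OE_NC library. The log2 change of -0.13 (95% interval -0.26 to 0.01) did not pass the test (adjusted p = 0.253).

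FGFR2, the receptor whose epithelial splice form binds FGF7, lies on chromosome 26 from 41450677 to 41558088, minus strand. It was at 9.95, 10.1 and 11.3 CPM in si, against 12.4, 12.1 and 12.2 CPM in si_NC. The si libraries lay below the si_NC libraries, and the log2 change of -0.22 ± 0.09 (SE; 95% interval -0.42 to -0.02) did not pass the test (adjusted p = 0.208, edgeR). In OE it was at 11.2, 10.4 and 11.4 CPM, against 11.5, 10.5 and 11.5 CPM in OE_NC. Those groups overlapped, with a log2 change of -0.02 (95% interval -0.22 to 0.17; adjusted p = 0.911).

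**Figure D2:**
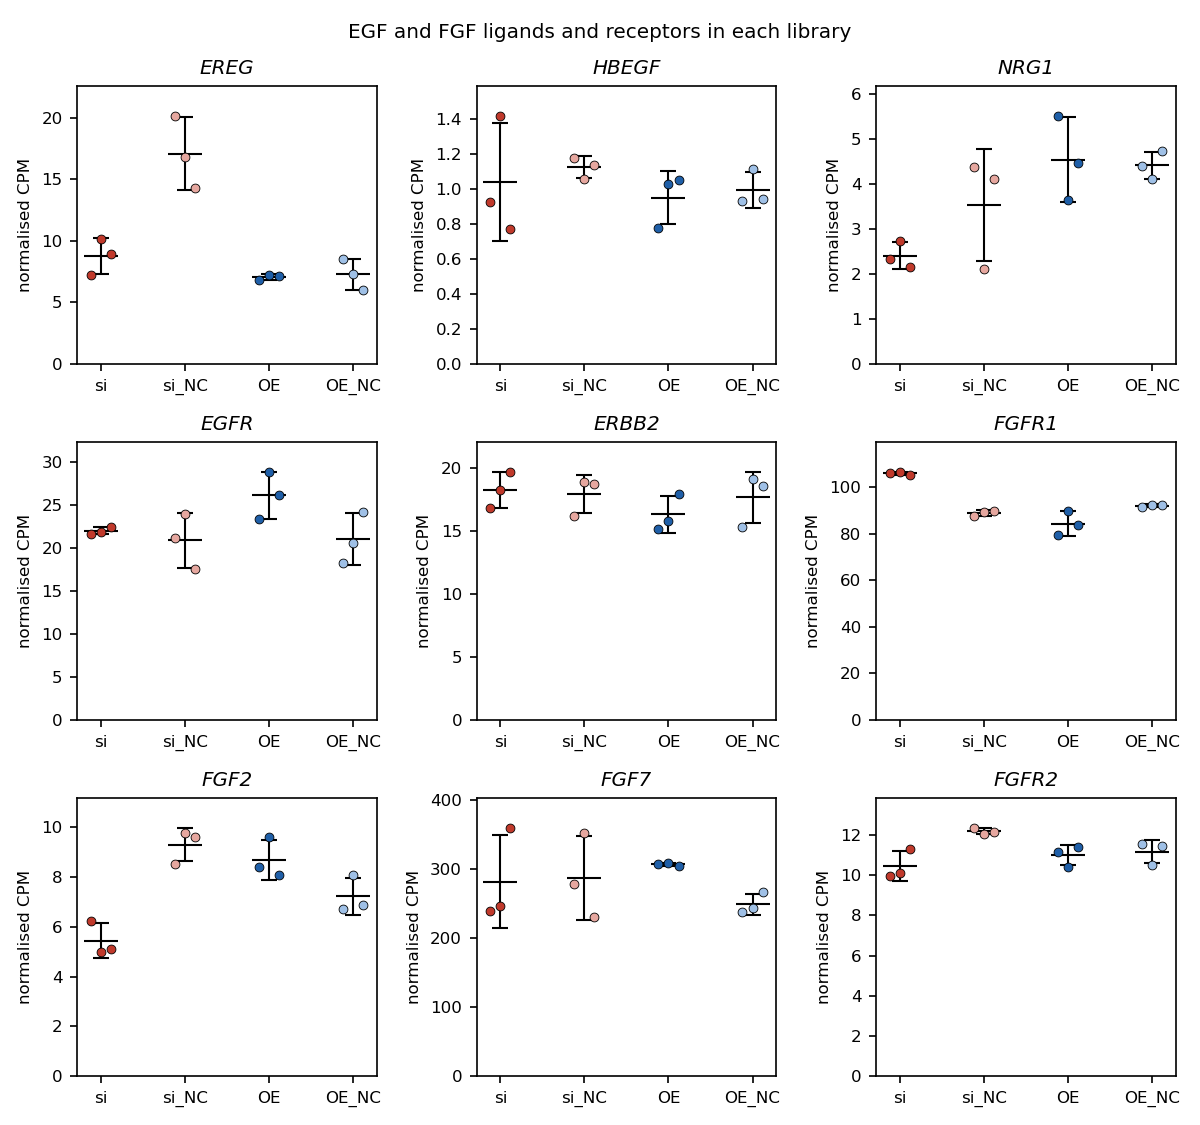
Normalised CPM of each of the 9 genes (linear axis from 0) in every library, with si left of si_NC and OE left of OE_NC; points are libraries, and bars give the mean and SD of 3. EREG and FGF2 lie lower in si than in si_NC, FGFR1 lies higher in si, and the OE and OE_NC libraries overlap for EREG.

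Across the 9 genes, the interference assay gave 3 calls, the fall of EREG and FGF2 and the rise of FGFR1, beside 2.54% of all 16300 genes tested. The 9 were chosen with earlier results of these data known. Setting their counts beside the shares of all genes, here and below, is therefore no test of the families. Before adjustment 5 of the 9 had p under 0.05, with NRG1 and FGFR2 added. The share of all genes with p under 0.05 before adjustment was not analysed here. Counts before adjustment, here and below, are therefore no result about the genes or lists. The si and si_NC libraries did not overlap for 4 of the 9, EREG, FGF2, FGFR1 and FGFR2, beside 20.8% of all genes. The median log2 change of the 9 was -0.10, beside 0.025 over all genes, and 3 of the 9 values were positive. The share of positive values over all genes was not analysed here, so that count is no result about the 9. Without si replicate 3 and si_NC replicate 2, a fit chosen after seeing the data, NRG1 was called as well. In a fit of only the 2 groups 0 of the 9 were called, beside 8 of 15266 genes tested there.

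The overexpression assay gave 0 calls among the 9 by edgeR's quasi-likelihood test, beside 4.47% of all genes tested. EGFR and FGF2 had p under 0.05 before adjustment, and DESeq2 and limma on log2 RPKM also gave 0 calls. The OE and OE_NC libraries did not overlap for 2 of the 9, FGF7 and FGFR1, beside 33.3% of all genes. The median log2 change of the 9 was -0.02, beside -0.005 over all genes. FGF7 was the single call in the fit of only the 2 groups and in the fit without a filter.

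Whether the change in OE differed from the change in si was tested as an interaction in the same fit. The test called 3 of the 9 genes, EREG, FGF2 and FGFR1, beside 8.41% of all genes tested. The change in OE minus the change in si was 0.91 ± 0.22 for EREG (adjusted p = 0.0219), 1.04 ± 0.18 for FGF2 (adjusted p = 0.00424) and -0.38 ± 0.09 for FGFR1 (adjusted p = 0.0198; log2 scale, SE, edgeR). For FGF2 the difference held without each of the 12 libraries in turn (0.96 to 1.15). For EREG it was lost without si replicate 1, si_NC replicate 1, OE replicate 2 or OE_NC replicate 2 (lowest 0.77). For FGFR1 it was lost without si replicate 2, OE replicate 1 or OE replicate 3 (log2 difference -0.43 to -0.35 over the 12). FGF7 passed without si replicate 3 (0.53), and NRG1 passed without si_NC replicate 2 (0.85).

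**Figure D3:**
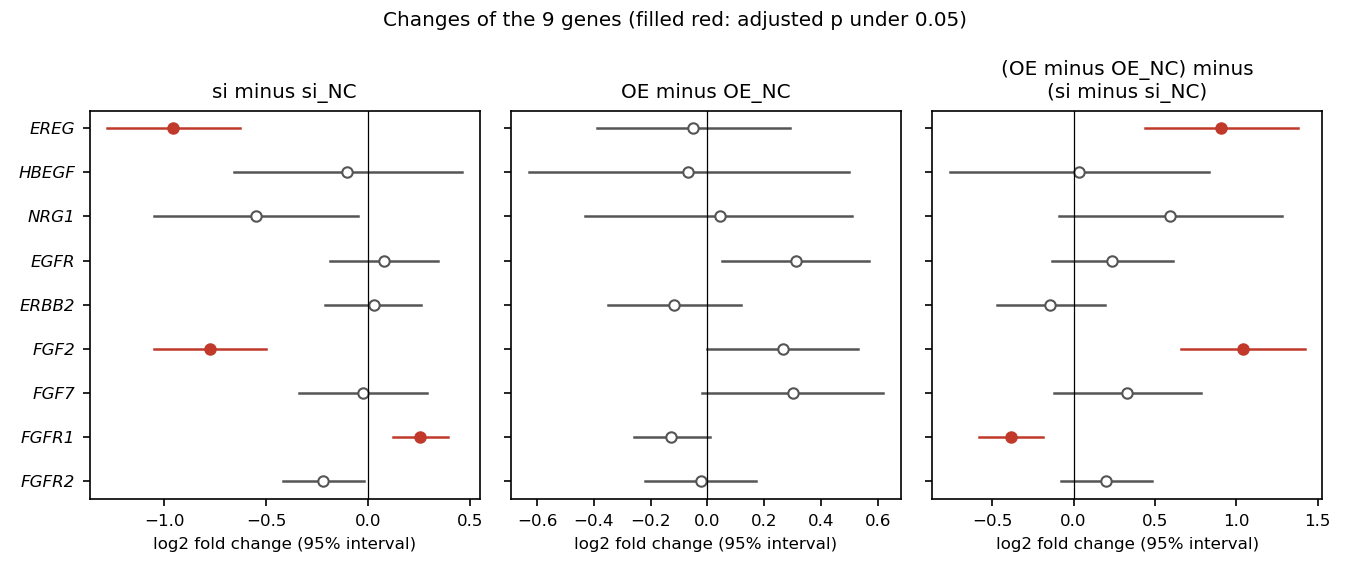
Log2 fold change with its 95% interval for each of the 9 genes in si minus si_NC (left), OE minus OE_NC (middle) and the difference of these changes (right), with adjusted p under 0.05 in filled red. EREG, FGF2 and FGFR1 are called on the left and on the right, and no gene is called in the middle.

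The same 3 genes were followed through the other settings of the analysis. The log2 change in si ranged over -0.975 to -0.68 for EREG and -0.80 to -0.36 for FGF2 in the 9 settings that kept all libraries, with 8 of 9 calling each. The smallest FGF2 value came from limma on log2(RPKM + 1), a scale that understates changes of genes near 1 RPKM. For FGFR1 the range was 0.23 to 0.33, with 5 of 9 settings calling it.

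**Figure D4:**
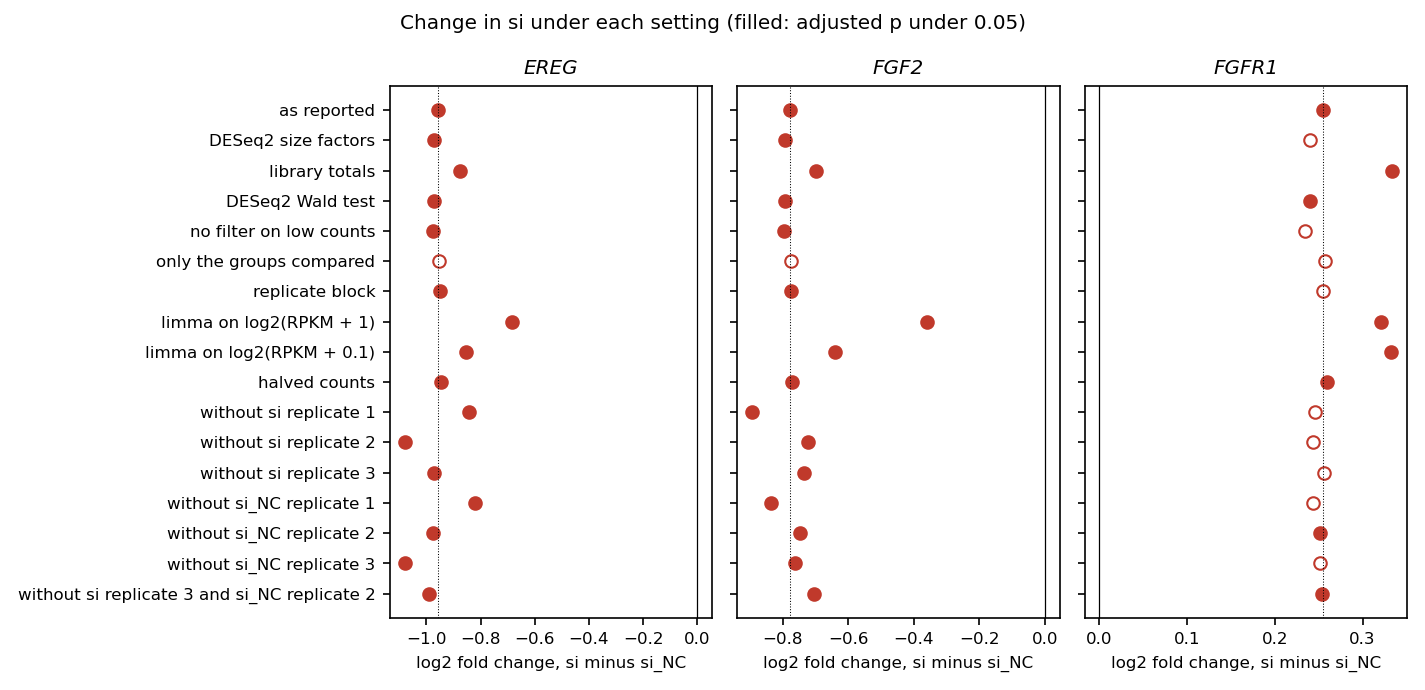
Log2 fold change in si minus si_NC for EREG, FGF2 and FGFR1 in the reported fit (top row, dotted line) and in each other setting, with filled points for adjusted p under 0.05. EREG and FGF2 are open in the fit of only the groups compared, and FGFR1 is open in 9 settings.

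The 2 control groups were not alike for EREG. OE_NC libraries were at 7.3 ± 1.25 CPM and si_NC libraries at 17.1 ± 2.94 CPM (SD, n = 3 each). The log2 difference was -1.23 ± 0.155 (SE; 95% interval -1.56 to -0.90; adjusted p = 0.000214, edgeR), and all 3 OE_NC libraries lay below all 3 si_NC libraries. EREG was the single call among the 9 genes, beside 19.7% of all genes tested. The OE_NC and si_NC libraries did not overlap for 4 of the 9, with EREG, FGF2 and FGFR2 lower and FGFR1 higher in OE_NC, beside 35.8% of all genes. FGF2 averaged 7.23 ± 0.748 CPM in OE_NC and 9.31 ± 0.673 CPM in si_NC, a log2 difference of -0.36 with an adjusted p of 0.0538, which passed by DESeq2. The kind of transfection and the assay cannot be told apart in this comparison.

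The other genes of both pathways were taken from 7 lists. In the interference assay 1 of 64 tested genes passed, beside 2.54% of all genes tested, and in the overexpression assay 3 of 64 passed, beside 4.47%. These shares are near or under those of all genes, so the counts are no result about the lists, and the called genes are given as single genes. PTPN11, the phosphatase SHP2 that links receptors to RAS, fell to 288.7 ± 15.95 CPM in si, against 346.2 ± 14.7 CPM in si_NC (log2 change -0.26 ± 0.065, adjusted p = 0.047, edgeR). The PTPN11 call was lost without si replicate 1 or 2 or si_NC replicate 1 or 3 (log2 change -0.27 to -0.235, adjusted p of 0.116 to 0.189). It was also lost with only the groups compared (-0.26, adjusted p = 0.183), with the replicate block (-0.26, adjusted p = 0.0521), with library totals (-0.18, adjusted p = 0.124) and with limma on RPKM plus 1 or 0.1 (both -0.18, adjusted p = 0.108 and 0.111).

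ADAM17, the protease that sheds HBEGF, EREG and other ligands, rose to 87.0, 91.45 and 93.45 CPM in OE, against 65.35, 69.85 and 70.2 CPM in OE_NC. The log2 change was 0.40 ± 0.07 (SE; adjusted p = 0.0119, edgeR), with no overlap between the groups. DUSP5, an ERK phosphatase, was at 0.571 ± 0.063 CPM in OE and 1.16 ± 0.188 CPM in OE_NC (log2 change -1.02, adjusted p = 0.0363). These levels are low, at 0.234 RPKM in OE and 0.494 RPKM in OE_NC. In the 9 settings that kept all libraries its log2 change ranged over -1.08 to -0.275, with all 9 calling it. PHLDA1, a gene induced by ERK signalling, was at 14.6 ± 0.925 CPM in OE and 18.9 ± 1.415 CPM in OE_NC (log2 change -0.37, adjusted p = 0.0401). Each of these 3 calls was lost in some fits without 1 library: ADAM17 in 4 of 6 (OE replicates 2 and 3, OE_NC replicates 1 and 2), and DUSP5 and PHLDA1 in 5 of 6 (all but OE_NC replicate 3).

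Among the other EGF family ligands, 2 of 7 in the table were tested and 0 passed in either assay (edgeR; 0 had p under 0.05 before adjustment). NRG2 averaged 0.501 CPM in si, 0.335 CPM in si_NC, 0.597 CPM in OE and 0.954 CPM in OE_NC, and TGFA averaged 0.596 CPM in si, 0.758 CPM in si_NC, 0.730 CPM in OE and 0.891 CPM in OE_NC. Among the other ERBB receptors and receptor regulators 0 of 7 tested passed in either assay (2 before adjustment in each). ERBIN, a scaffold protein that binds ERBB2, averaged 333.8 CPM in si and 324.3 CPM in si_NC. ERRFI1, an inhibitor of EGFR and ERBB2, averaged 86.15 CPM in si and 70.2 CPM in si_NC (adjusted p = 0.0676), and 51.8 CPM in OE and 60.2 CPM in OE_NC (adjusted p = 0.131).

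Among the other FGF ligands 0 of 6 tested passed in either assay (0 in si and 1 in OE before adjustment). FGF10, which also binds the epithelial form of FGFR2, was at 6.07, 6.86 and 6.47 CPM in OE, against 5.02, 5.33 and 5.15 CPM in OE_NC. The FGF10 groups did not overlap, and the log2 change of 0.32 had an adjusted p of 0.188. FGF23 averaged 5.00 CPM in si and 5.13 CPM in si_NC, and it shares 46.3% of its exon bases with TIGAR on the other strand. Among the other FGF receptors, coreceptors and binding proteins 0 of 9 tested passed in either assay (1 before adjustment in each). The heparan sulfate proteoglycan gene GPC1 averaged 85.2 CPM in si and 86.5 CPM in si_NC, and SDC1 59.0 CPM in OE and 47.4 CPM in OE_NC (adjusted p = 0.156).

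Counts and medians of the lists were read beside the median log2 change of all genes, 0.025 in si and -0.005 in OE. Of the 6 ligand shedding genes 0 passed in si (0 before adjustment, edgeR) and 1 in OE, with a median log2 change of 0.085 in si and 0.13 in OE. The median was -0.02 in si and 0.085 in OE over the 7 ERBB receptors and regulators, 0.03 in si and 0.28 in OE over the 6 FGF ligands, and -0.04 in si and 0.06 in OE over the 9 FGF receptors, coreceptors and binding proteins. Over the 18 genes of the RAS-ERK relay the median log2 change was 0.04 in si, with 1 called, and 0.03 in OE, with 0 called (4 before adjustment). Over the 16 ERK targets and feedback genes it was 0.08 in si, with 13 of 16 positive and 0 called, and -0.05 in OE, with 7 of 16 positive and 2 called. The share of all genes with a positive change was not analysed here, so these counts of positive values are no result about the list.

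In the test of the difference between assays, 6 of the 64 genes of these lists passed, in both directions, beside 8.41% of all genes tested. That count is near the share of all genes and is no result about the lists. Among the genes that passed, ADAM17 (0.55) and PTPN11 (0.40) had the higher log2 change in OE, and ERRFI1 (-0.51), PHLDA1 (-0.685) and DUSP6 (-0.85) had the lower. The 2 control groups differed for several of these genes too: in OE_NC against si_NC 21 of the 64 genes passed, beside 19.7% of all genes tested. Among them PTPN11 was lower in OE_NC (log2 difference -0.23, adjusted p = 0.0244), and DUSP6 (0.53, adjusted p = 0.0236) and PHLDA1 (0.29, adjusted p = 0.039) were higher in OE_NC. ADAM17 and ERRFI1 did not pass there (-0.20, adjusted p = 0.0549, and -0.22, adjusted p = 0.0682). DUSP6 was named after its values were seen. DUSP6, the ERK phosphatase induced by FGF signalling, was at 10.05 ± 2.05 CPM in si and 8.08 ± 1.03 CPM in si_NC, and at 8.05 ± 0.957 CPM in OE and 11.6 ± 0.701 CPM in OE_NC. ADAM17, ERRFI1 and PHLDA1 passed without each of the 12 libraries in turn, and DUSP6 and PTPN11 in 8 of 12, both lost without si replicate 1, si replicate 2, OE replicate 1 or OE_NC replicate 2.

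**Figure D5:**
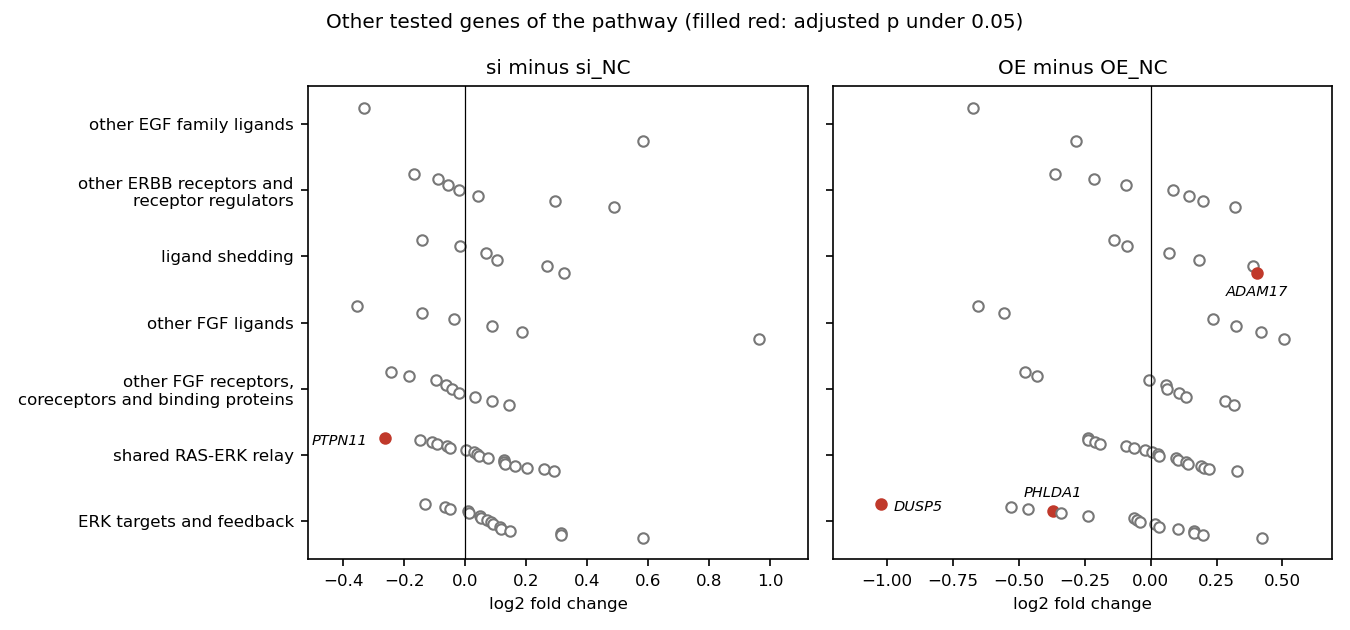
Log2 fold change of each other tested gene of the 7 lists in si minus si_NC (left) and OE minus OE_NC (right), 1 point per gene, with adjusted p under 0.05 in filled red. PTPN11 is the single call on the left, and ADAM17, DUSP5 and PHLDA1 are the calls on the right.

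The genes most like each of the 9 over the 12 libraries were read from the Pearson r of log2 CPM, among genes of at least 5 CPM and without a LOC number. These r values describe 12 libraries of 4 groups that share scaling and depth, and carry no test. EREG was closest to DHX32 (r = 0.965) and ARHGAP22 (r = 0.961), and FGF7 to DACT1 (r = 0.962) and SAT1 (r = 0.947). FGF2 was closest to XPC (r = 0.928) and SUPT5H (r = 0.889), and FGFR1 to PRR14 (r = 0.914) and ID2 (r = 0.907). EGFR was closest to KIF26B (r = 0.936) and RNF6 (r = 0.91), and NRG1 to PARP2 (r = 0.898) and SRFBP1 (r = 0.895). FGFR2 was closest to RNF115 (r = 0.891) and TRAF7 (r = 0.886), and ERBB2 to TMEM164 (r = 0.872) and ZNF532 (r = 0.824). HBEGF was closest to RPGRIP1 (r = 0.862) and PLPBP (r = 0.854).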

How the data were processed

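RNA of 12 libraries of cattle precursor adipocytes was sequenced from polyadenylated RNA with a stranded kit, per the labels' protocols. The authors deposited 2 tables, of raw counts and of RPKM. Tools named in the submitters' processing notes are fastp 0.23.0 and, from Subread 1.5.1, featureCounts. The aligner, genome build and strand setting were not given in the sources used here. Recomputed RPKM differed from the deposited RPKM by a relative 5.1e-15 at most. Groups came from sample titles, and 0 value columns were left unmapped. Start and end are those of the count table, the chromosome follows from matching its symbols to a RefSeq gene table, and 24954 symbols (85.3%) matched. Entries naming no gene (2, holding 0.0868% to 0.116% of counts) were left out.

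The test was that of edgeR 4.0.16 under R 4.3.3 (TMM scaling, filterByExpr with a minimum count of 10 and a minimum total of 15, quasi-likelihood F test, 1 fit of 12 libraries with 8 residual degrees of freedom). Benjamini-Hochberg adjustment ran over 16300 genes, with a threshold of 0.05. A standard error is the size of the log2 change over the square root of F. Contrasts were set as si against si_NC, OE against OE_NC, the difference of those changes, and OE_NC against si_NC. Alternatives were DESeq2 1.42.0 size factors and Wald test, library totals, no filter, only the groups compared, the replicate number as a block, limma 3.58.1 on log2 RPKM with 1 or 0.1 added, halved counts (66.2% to 69.3% of nonzero counts were even), and leaving out each library. Leaving out si replicate 3 and si_NC replicate 2 together was chosen after seeing the data.

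The 9 genes and all gene lists were chosen with earlier results of these data known. Named beside the 9 were HGFAC, NUDT6, the called genes of each pathway list (otherwise its 2 most abundant tested genes), and the 2 genes most like each of the 9. Of 142 listed symbols 3 were not matched (NRG4, FGF6 and FGFBP1). Raw reads were not analysed here, and no sequence is shown. One gene of the pathway lists is not reported here.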

Additional observations from a re-analysis of the deposited data

Results flagged for a closer look

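For 3 of the 9 genes the change in OE differed from the change in si by a test of the difference itself. EREG had a difference of 0.907 (log2; change in OE minus change in si). Its level was lower in si than in si_NC in 3 of 3 si libraries, and the OE and OE_NC libraries overlapped. EREG was also lower in OE_NC than in si_NC, so the 2 assays started from different control levels. FGF2 had a difference of 1.04, with all si libraries below all si_NC libraries and a positive log2 change in OE that did not pass the test. FGFR1 had a difference of -0.382, with all si libraries above all si_NC libraries and all OE libraries below all OE_NC libraries. Its log2 change in OE (-0.127) did not pass the test (adjusted p = 0.253, edgeR). The FGFR1 difference was lost without si replicate 2, OE replicate 1 or OE replicate 3. The kind of transfection differs between the assays and cannot be told apart from these differences.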

How the results depend on the processing

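The reported fit called 414 genes in si, 728 in OE, 1371 for the difference and 3215 between the controls. The number in si was 1125 with DESeq2, 1208 without a filter and 8 with only the groups compared. The number in OE was 1546, 1679 and 1621 in these settings. Leaving out libraries gave 56 to 1119 genes in si, 19 to 758 in OE, 588 to 2305 for the difference and 1882 to 2833 between controls. Of the 9 genes, calls in si moved to 0 with only the groups compared, calls in OE to 1 with only the groups compared and to 1 without a filter (FGF7), and calls between controls to 2 with DESeq2 (EREG and FGF2). Scaling by library totals turned the share of rises among called genes to 73.8% in si (36.2% reported), 19.6% in OE (49.7%), 17.3% for the difference (51.1%) and 70.9% between controls (48.1%). It moved the median log2 difference of all genes to -0.16 for the difference, against -0.0249 reported. The TMM factors that this setting drops were 1.01 to 1.03 in si and 0.949 to 0.983 in si_NC. They were 0.981 to 0.994 in OE and 1.02 to 1.04 in OE_NC. Why the factors differed between groups was not tested.

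Signs of some values near 0 turned, none of them called. FGF7 in si was 0.0489 with library totals and 0.0481 or 0.0485 with limma on RPKM plus 1 or 0.1. NRG1 in OE was -0.0125, -0.0054 and -0.0229 in these settings. The HBEGF difference was -0.104, -0.0259 and -0.0439, and -0.0112 with halved counts. Between controls ERBB2 was 0.0707, 0.0533 and 0.0648, and EGFR was -0.00056 without a filter. Leaving out libraries gave, in si, -0.245 to 0.139 for FGF7, -0.411 to 0.066 for HBEGF, -0.042 to 0.075 for ERBB2 and -0.0459 to 0.177 for EGFR. In OE it gave -0.14 to 0.0438 for HBEGF, -0.137 to 0.171 for NRG1, -0.0732 to 0.00608 for FGFR2 and -0.188 to 0.0632 for EREG. The HBEGF difference ranged over -0.15 to 0.33, and between controls ERBB2 ranged over -0.0905 to 0.0733 and EGFR over -0.106 to 0.118.

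Libraries of the same replicate number did not deviate together (r of -0.257 to 0.0921 in the interference assay and -0.0147 to 0.0446 in the overexpression assay), so the numbers were not taken as pairs. With the replicate block 396 genes were called in si, 803 in OE, 1247 for the difference and 3150 between controls, with 2, 0, 3 and 1 of the 9 genes among them. Depth limits HBEGF most, at 28 to 62 counts per library. Every HBEGF count was even, as were 66.2% to 69.3% of the nonzero counts of a library. Whether both reads of a pair were counted was not tested, so the number of separate fragments may be lower than the counts.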
